A study of Mus musculus with 9 samples.

Results

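Of the 56941 genes counted in RNA from mouse pancreatic islets, 8 were examined here because they are used as markers of pancreatic duct cells. They were Sox9, Krt19, Krt7, Cldn7, Tspan8, Cftr, Spp1 and Muc1, taken by name from general knowledge of the duct. Earlier results of these data were known when the 8 were chosen. All 8 were among the 18548 genes that passed the filter on low counts. The islets came from male wild-type C57BL/6J mice that were 15 weeks old when they were put on 1 of 3 diets, which they ate for 9 months. There were 3 libraries from the low fat diet (LFD, 10% fat), 2 from the high fat diet (HFD, 60% fat) and 4 from the ketogenic diet (KD, 89.9% fat), and each is called by its diet and replicate number. The labels do not say how many mice gave the islets of a library. The series sets islet gene expression on the 3 diets side by side.

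Pancreatic ducts drain the digestive enzymes that acinar cells make, and their cells line the tubes with a sheet of keratin-rich, tightly joined epithelium. Duct cells secrete bicarbonate and fluid through apical channels and coat the lumen with mucins, and most carry a primary cilium that senses flow. An islet preparation is never free of exocrine tissue, so duct and acinar transcripts are measured along with those of hormone cells. In bulk RNA of this kind, fewer cells of a type and less RNA per cell cannot be told apart.

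Total counts ran from 15513502 to 26588390 per library. The acinar list of 27 digestive enzyme and related genes took 15.2 to 35.95% of counts on LFD, 11.4 to 19.05% on HFD and 20.5 to 61.1% on KD, where the widest 95% Wilson interval spanned 0.0239 percentage points on each side of its value, for counting error only. Because this share was so uneven, levels are given as CPM, a gene's counts relative to a library size of the same nominal total in all libraries, after scaling by TMM, a method that sets the bulk of genes equal between libraries. Ins1 and Ins2, the insulin genes that define beta cells, took 1.44 to 11.1% of counts. Among the KD libraries, replicate 4 had 20.5% of its counts in the acinar list against 45.0 to 61.1% in the others, and replicate 3 had the lowest mean level of the lymphocyte and the endothelial lists.

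The 8 genes fell into different patterns rather than moving as 1 block. Krt19, Cftr and Spp1 fell on KD, to 0.252, 0.290 and 0.447 of their LFD levels, and had similar low values on HFD. Sox9 and Tspan8 were lower than LFD in all 4 KD libraries but did not pass the test. Krt7 and Cldn7 stayed near their LFD levels, and Muc1 was highest in the KD libraries with the most acinar RNA.

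The stretches before the transcription start of 4 genes are shown because they belong to genes of these different patterns: Spp1 and Cftr, which fell, Krt7, which stayed, and Muc1, which followed acinar RNA. RefSeq windows (GRCm38.p6) matched 6 of the 8 genes, and the 250 bases before the start are printed, 5′ to 3′ on the + strand, with the words named after the sequences in capitals. The Spp1 window is chr5:104434861-104435110, the upstream one of 2 starts, the Cftr window is chr6:18170437-18170686, the Krt7 window is chr15:101412153-101412402 and the Muc1 window is chr3:89228806-89229055.
Spp1: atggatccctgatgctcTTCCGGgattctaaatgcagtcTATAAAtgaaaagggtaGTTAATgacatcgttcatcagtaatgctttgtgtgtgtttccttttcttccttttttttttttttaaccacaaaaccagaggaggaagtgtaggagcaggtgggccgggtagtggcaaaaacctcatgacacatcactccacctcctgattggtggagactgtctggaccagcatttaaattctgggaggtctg
Cftr: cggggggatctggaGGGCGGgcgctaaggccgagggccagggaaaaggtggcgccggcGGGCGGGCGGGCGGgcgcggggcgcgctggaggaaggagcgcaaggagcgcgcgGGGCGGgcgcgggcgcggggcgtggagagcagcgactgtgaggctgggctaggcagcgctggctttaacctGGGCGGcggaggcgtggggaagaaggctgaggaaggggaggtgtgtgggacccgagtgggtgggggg
Krt7: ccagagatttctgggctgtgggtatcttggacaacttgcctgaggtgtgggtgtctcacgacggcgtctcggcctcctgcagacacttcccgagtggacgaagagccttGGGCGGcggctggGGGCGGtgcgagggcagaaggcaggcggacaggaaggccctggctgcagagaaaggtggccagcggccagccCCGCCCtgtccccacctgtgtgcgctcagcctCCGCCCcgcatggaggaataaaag
Muc1: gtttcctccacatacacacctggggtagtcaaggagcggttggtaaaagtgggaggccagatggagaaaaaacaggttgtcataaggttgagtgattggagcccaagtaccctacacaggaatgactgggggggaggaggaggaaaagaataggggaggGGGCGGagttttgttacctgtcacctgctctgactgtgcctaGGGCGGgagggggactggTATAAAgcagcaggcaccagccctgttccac

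Words of 8 motifs were searched on both strands: HNF1 GTTAAT, ONECUT ATTGAT, SOX ACAATG, GRHL AACCGG, ETS class CCGGAA, KLF GGGCGG, AP-1 TGANTCA and the TATA box TATAAA. Words may overlap each other, as the KLF words of Cftr do, and a match is a description of letters only. The KLF word was found in the Cftr, Krt7 and Muc1 windows and in 32.7% of the 32851 windows in the table. The Cftr window was 76.4% G or C and held it 6 times, while the Spp1 window was 43.6% G or C and held it nowhere, against a median of 52.4% G or C over all windows. The Spp1 window had 1 HNF1 word, found in 6.43% of windows, and 1 ETS class word, found in 12.0%. Muc1 had a TATA box word from 31 to 26 bases before its start, and Spp1 one from 211 to 206 bases before, a word present in 12.4% of windows. Spp1 and Cftr, which both fell, had no word of this set in common in these windows.

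**Figure D1:**
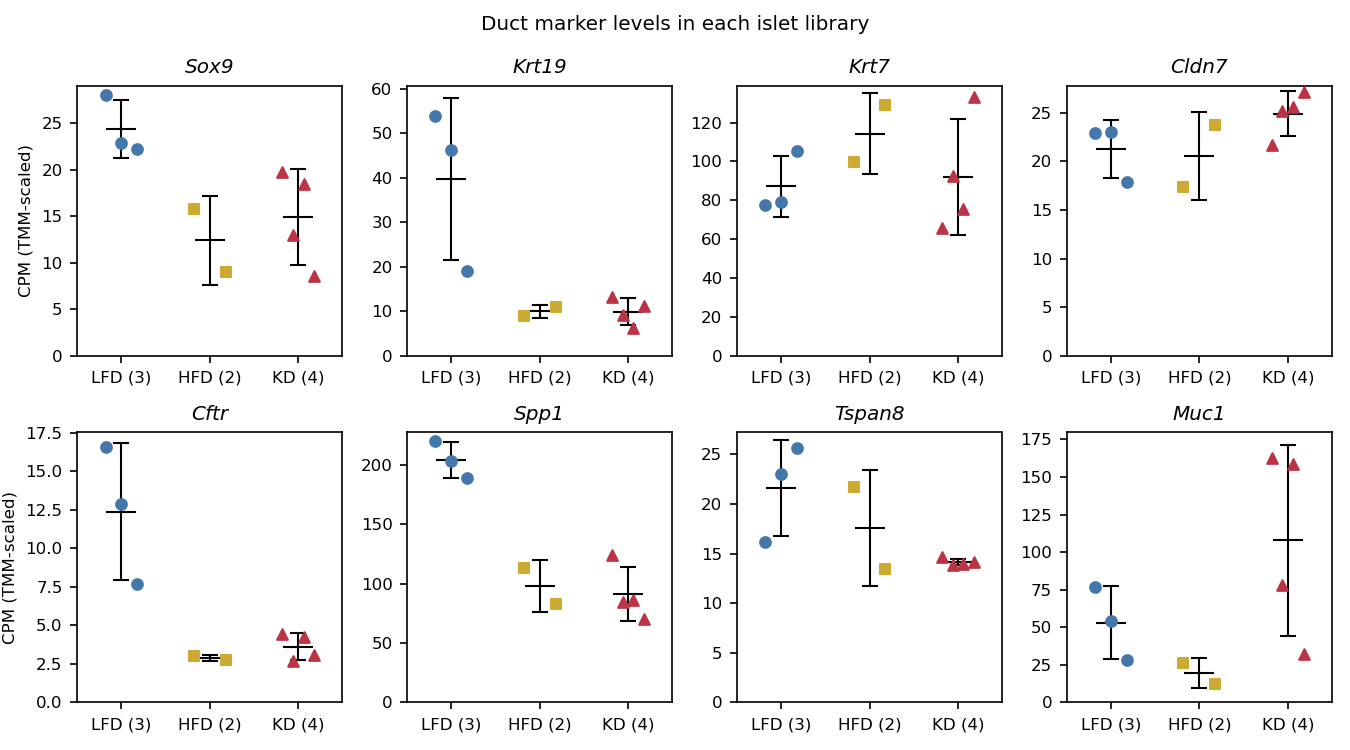
Level of each duct marker in every islet library, in CPM on TMM-scaled library sizes (vertical axis, starting at 0), by diet with the number of libraries in brackets. Points are libraries, the long bar is the mean and the whiskers are the SD. Krt19, Cftr and Spp1 on KD lie below every LFD library, Krt7 and Cldn7 overlap between diets, and Muc1 spreads from 32.5 to 162 CPM on KD.

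Sox9 (ENSMUSG00000000567) encodes the transcription factor that is kept on in adult duct cells and in the centroacinar cells at their tips. It measured 28.0, 22.9 and 22.2 CPM in LFD replicates 1 to 3, 15.8 and 9.01 CPM in HFD replicates 1 and 2, and 19.8, 13.0, 18.4 and 8.60 CPM in KD replicates 1 to 4. Every HFD and KD library was below every LFD library, and the HFD and KD values overlapped. From LFD to KD the fitted change was -0.715 on the log2 scale (SE 0.28), which did not pass the edgeR quasi-likelihood test (adjusted p 0.160 after Benjamini-Hochberg adjustment over all genes tested). Within the KD group the 2 highest values came from replicates 1 and 3, which also had the most acinar RNA. With the mean level of the acinar list as a covariate the KD change was -1.21 (edgeR adjusted p 0.00250), and with the beta cell list, a covariate chosen after the data were seen, it was -0.77 (edgeR adjusted p 0.00937). Those fits called 8.17% and 15% of all genes.

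Krt19 (ENSMUSG00000020911) encodes a type I keratin, the intermediate filament protein most used to trace duct cells. Its levels were 54.0, 46.15 and 19.1 CPM on LFD, 9.00 and 11.1 CPM on HFD, and 13.15, 9.27, 6.23 and 11.2 CPM on KD. LFD replicate 3 was well below the other LFD libraries yet above all HFD and KD libraries. Between LFD and KD, Krt19 fell by 1.99 on the log2 scale (SE 0.33, edgeR adjusted p 0.0140), from 39.7 ± 18.3 CPM (SD, n = 3) to 9.96 ± 2.95 CPM (SD, n = 4). The call did not hold when LFD replicate 1, LFD replicate 2 or KD replicate 2 was left out (edgeR adjusted p 0.05004, 0.0537 and 0.0519), where the change ran from -2.32 to -1.72 over the 9 omissions of a library. By limma-voom the call was also lost (adjusted p 0.0513), and with the lymphocyte score as a covariate the change turned to 0.32 (edgeR adjusted p 0.872), a fit that called 0 of all genes (2302 at an unadjusted p below 0.05). With the macrophage score it was -1.04 (edgeR adjusted p 0.333).

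Krt7 (ENSMUSG00000023039) encodes a type II keratin that pairs with type I keratins in duct epithelium. It measured 77.5, 79.0 and 105 CPM on LFD, 99.45 and 129 CPM on HFD, and 65.8, 92.5, 75.4 and 133 CPM on KD. The ranges of the diets overlapped, and KD replicate 4 had the highest level of all libraries. From LFD to KD the change was 0.07 (SE 0.23, 95% interval -0.43 to 0.58, edgeR adjusted p 0.883), and it turned to -0.39 when libraries were scaled by total counts, where the median of all genes was itself -0.59. The antisense gene Gm671 shares exon sequence with Krt7 and held 3 to 23 counts per library, against 846 to 3079 for Krt7, and whether the counting used strand is not stated.

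The ratio of Krt19 to Krt7 counts needs no scaling between libraries. It was 0.696, 0.584 and 0.181 on LFD, 0.0905 and 0.0857 on HFD, and 0.200, 0.100, 0.0826 and 0.0840 on KD. All HFD libraries and 3 of the 4 KD libraries were below every LFD library, and KD replicate 1 overlapped LFD replicate 3. So the 2 keratins, both used as duct markers, changed by different amounts within the same libraries. Krt7 itself varied with the beta cell list (Pearson r = 0.97 over the 9 libraries), so this ratio need not compare 2 genes of the same cells.

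Cldn7 (ENSMUSG00000018569) encodes a claudin, a membrane protein of tight junctions. It measured 22.9, 22.99 and 17.9 CPM on LFD, 17.3 and 23.7 CPM on HFD, and 21.7, 25.2, 25.6 and 27.1 CPM on KD. Its diet ranges overlapped and its means lay between 20.5 and 24.9 CPM. The KD change was 0.23 (95% interval -0.12 to 0.58, edgeR adjusted p 0.416), and it was -0.31 under scaling by total counts. Tspan8 (ENSMUSG00000034127), a tetraspanin of the epithelial surface, measured 16.2, 23.03 and 25.6 CPM on LFD, 21.7 and 13.45 CPM on HFD, and 14.6, 13.9, 13.98 and 14.2 CPM on KD. Its 4 KD libraries had an SD of 0.338 CPM and lay just below the lowest LFD library, and the change of -0.61 did not pass (SE 0.20, edgeR adjusted p 0.100). Under scaling by total counts Tspan8 passed at -1.21 (edgeR adjusted p 0.0308). In that scaling the median of all genes was itself -0.59, and 8.91% of genes were called, 1643 lower and 10 higher.

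Cftr (ENSMUSG00000041301) encodes the chloride and bicarbonate channel that drives duct secretion. It measured 16.55, 12.9 and 7.69 CPM on LFD, 3.00 and 2.765 CPM on HFD, and 4.435, 2.72, 4.275 and 3.05 CPM on KD. These levels rest on 164 to 287 counts per LFD library, 60 and 66 counts on HFD and 48 to 68 counts on KD. The LFD values stood above all others without overlap. Cftr fell by 1.79 on the log2 scale on KD (SE 0.28, edgeR adjusted p 0.0104). The call held in all 9 omissions of a library, with a change from -2.04 to -1.53 and an edgeR adjusted p of at most 0.0468. It was lost with the lymphocyte or the macrophage score as a covariate, fits that called 0 and 1 of all genes. Over all 23 alternatives the call held in 21, and the change ran from -2.40 to -0.88.

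Spp1 (ENSMUSG00000029304) encodes osteopontin, a secreted phosphoprotein that duct cells make in quantity and that macrophages can make as well. Its levels were 219.9, 204 and 189 CPM on LFD, 113 and 82.8 CPM on HFD, and 124, 84.9, 86.6 and 70.2 CPM on KD. The LFD libraries agreed closely, and none of the other 6 libraries reached them. Spp1 fell by 1.161 on the log2 scale on KD (SE 0.19, edgeR adjusted p 0.0115), from 204 ± 15.4 CPM (SD, n = 3) to 91.4 ± 22.9 CPM (SD, n = 4). This call also held in all 9 omissions of a library, with a change from -1.34 to -1.05 and an edgeR adjusted p of at most 0.0473. With the lymphocyte score as a covariate the call was lost, in a fit that called 0 of all genes. The gene model Gm42793 overlaps exons of Spp1 on the same strand and held 7 to 82 counts against 972 to 4544 for Spp1, and how reads shared by both were counted is not stated.

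The 13 macrophage genes summed to 103 to 166 CPM on LFD, 119 to 154 CPM on HFD and 61.5 to 119.6 CPM on KD. The mean macrophage level, in log2 CPM, was 2.23 to 2.84 on LFD and lower in all 4 KD libraries, at 1.13 to 2.17, and its part in the Spp1 change was not tested. Lyz2, a lysozyme gene of macrophages, was the only gene of that list that passed the test on KD, at -2.04 (edgeR adjusted p 0.0210). With the mean level of the macrophage list as a covariate the KD change of Spp1 was -1.21 and no longer passed (edgeR adjusted p 0.263), a fit in which 1 of 18548 genes was called.

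Muc1 (ENSMUSG00000042784) encodes a transmembrane mucin of apical surfaces in glands. It measured 76.7, 54.4 and 28.3 CPM on LFD, 26.4 and 12.3 CPM on HFD, and 162, 78.4, 159 and 32.5 CPM on KD. The KD and LFD ranges overlapped because KD replicate 4 was low, while both HFD libraries were below all others. No change of Muc1 passed. The KD mean was above that of LFD by 1.02 on the log2 scale (SE 0.58, edgeR adjusted p 0.334), the HFD change from LFD was -1.46 (SE 0.72, edgeR adjusted p 0.536), and KD stood above HFD by 2.48 (SE 0.73, edgeR adjusted p 0.128). Without KD replicate 4 the KD against HFD change was 2.785 and passed (edgeR adjusted p 0.0230), a fit that called 9.84% of all genes. With the acinar list as a covariate the KD against LFD change of Muc1 was -0.07 (edgeR adjusted p 0.793).

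**Figure D2:**
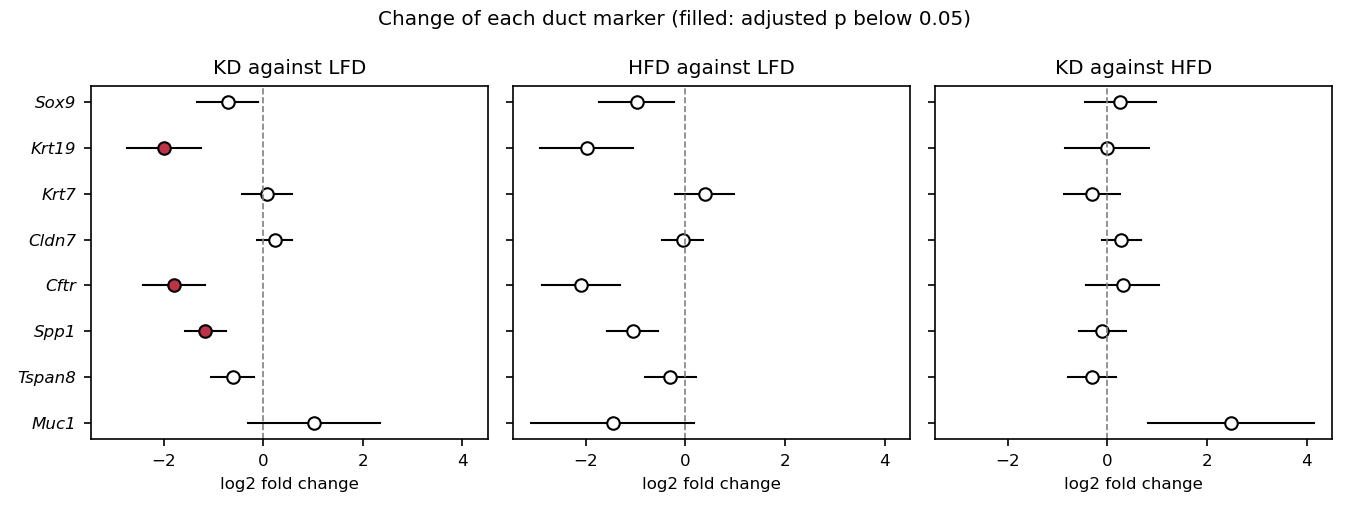
Fitted log2 fold change of each duct marker (horizontal axis) in the 3 comparisons of diets, with 95% intervals as lines; filled points have an edgeR adjusted p below 0.05. Only Krt19, Cftr and Spp1 for KD against LFD are filled, the HFD points of the same genes lie at -1.98, -2.10 and -1.06, and Muc1 has the widest intervals.

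Set beside all genes, 3 of the 8 duct markers fell on KD against LFD and 0 rose, where 4.12% of the 18548 genes tested were called, 3.14% lower and 0.981% higher. At an unadjusted p below 0.05 edgeR gave 5 of the 8, against 22.7% of all genes. The libraries did not overlap for 5 of the 8, all lower, where 19.7% of all genes did not overlap, 10.1% lower and 9.69% higher. The median change of the 8 was -0.66, beside -0.02 for all genes tested. The genes that did not pass were Sox9 and Tspan8, both below 0, and Krt7, Cldn7 and Muc1, all above 0. In the joint test of any difference between the diets, edgeR called the same 3 genes, Cftr, Spp1 and Krt19 (edgeR adjusted p 0.01355, 0.0217 and 0.0257), where 2.17% of all genes were called. The joint call was lost for all 3 by limma-voom, which called 0.108% of all genes, with the lymphocyte or macrophage score as a covariate, and without LFD replicate 1, LFD replicate 2 or KD replicate 2, fits that called 0.373%, 0.238% and 0.196% of all genes. With the lymphocyte list as a covariate edgeR called 0 of the 8 genes (0 at an unadjusted p below 0.05) and 0 of all genes (2302 at an unadjusted p below 0.05), while DESeq2 and limma-voom without covariates called 3 and 2 of the 8 and 9.56% and 1.15% of all genes. The 12 lymphocyte genes summed to 24.9 to 136 CPM on LFD but 3.75 and 4.99 CPM on HFD and 1.247 to 3.11 CPM on KD, and 10 of the 12 fell on KD, so in these libraries the lymphocyte level and the diet cannot be told apart.

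On HFD the same genes were low, but none of the 18548 genes tested passed. The edgeR test called 0 of the 8 duct markers for HFD against LFD, where 0% of all genes were called, and gave 4 of the 8 an unadjusted p under 0.05 (9.99% of all genes). DESeq2 called 3, Cftr, Krt19 and Spp1, and 1.44% of all genes, edgeR with no low-count filter called 2, Cftr and Spp1, and 0.261% of all genes, and limma-voom called 0 of the 8 and 0 of all genes (1912 at an unadjusted p below 0.05). The fitted changes were -2.10 for Cftr (SE 0.36, edgeR adjusted p 0.134), -1.98 for Krt19 (SE 0.42, edgeR adjusted p 0.222), -1.06 for Spp1 (SE 0.23, edgeR adjusted p 0.222) and -0.97 for Sox9 (SE 0.34, edgeR adjusted p 0.420). HFD libraries lay below LFD without overlap for 5 of the 8, these 4 and Muc1, where 27.5% of all genes did not overlap, 14.1% lower and 13.4% higher. Without LFD replicate 3 edgeR called 2 of the 8, Cftr at -2.35 and Krt19 at -2.32 (edgeR adjusted p 0.00921 and 0.00857), a fit that called 1.06% of all genes. Krt7, at 0.39 (95% interval -0.21 to 0.98), was the only one of the 8 with a value above 0. This comparison and that of KD share the 3 LFD libraries, so their values are not independent of each other.

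The KD and HFD libraries were also compared with each other, in the same fit of all 9 libraries. The edgeR test called 0 of the 8 duct markers, where 0% of all genes were called, and gave 1 of the 8, Muc1, an unadjusted p under 0.05 (22.7% of all genes). DESeq2 called 1, again Muc1, and 8.18% of all genes, and limma-voom called 0. The change was -0.01 for Krt19 (95% interval -0.86 to 0.85), -0.10 for Spp1 (-0.57 to 0.37), 0.31 for Cftr (-0.42 to 1.045) and 0.26 for Sox9 (-0.45 to 0.97). With 2 HFD libraries these intervals still allow differences of up to 0.37 to 1.045 upward and 0.42 to 0.86 downward on the log2 scale. Muc1 was the only one of the 8 whose KD and HFD libraries did not overlap, all higher on KD, where 33.9% of all genes did not overlap, 15.7% higher and 18.2% lower. The acinar list took 20.5 to 61.1% of counts in those KD libraries and 11.4 and 19.05% in the HFD libraries.

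Levels were also compared between genes, as CPM per kilobase of the longest annotated transcript. On LFD, Spp1 was the highest of the 8 at 135.5 ± 10.2 CPM per kilobase (SD, n = 3), followed by Krt19 at 25.2 ± 11.6, Muc1 at 23.7 ± 10.8 and Krt7 at 21.3 ± 3.84, which did not differ beyond their spread. Cldn7 at 15.9 ± 2.20 and Tspan8 at 15.7 ± 3.53 were also alike within their spread, which overlapped that of Krt19, Muc1 and Krt7. Sox9 at 5.89 ± 0.757 and Cftr at 1.93 ± 0.694 were lowest. On KD the order was Spp1 at 60.6 ± 15.2 CPM per kilobase (SD, n = 4), Muc1 at 48.2 ± 28.3, Krt7 at 22.4 ± 7.28, Cldn7 at 18.65 ± 1.71, Tspan8 at 10.25 ± 0.245, Krt19 at 6.32 ± 1.87, Sox9 at 3.61 ± 1.24 and Cftr at 0.565 ± 0.135. Muc1 overlapped there with Spp1, Krt7 and Cldn7, and so did Krt7 with Cldn7 and Krt19 with Sox9. On HFD (n = 2) Spp1 led at 65.1 ± 14.4 and Krt7 followed at 27.9 ± 5.11, while Krt19 was at 6.37 ± 0.923 and Cftr at 0.450 ± 0.0260. Cldn7 at 15.4 ± 3.39 and Tspan8 at 12.7 ± 4.23 again overlapped.

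Ratios to Muc1 also need no scaling. KD libraries were below those of both other diets for Cftr, Spp1 and Sox9, but overlapped with them for Krt19, where KD replicate 4 was at 0.345 and HFD replicate 1 at 0.342, and for Krt7. The Cftr to Muc1 ratio was 0.216, 0.236 and 0.2715 on LFD, 0.114 and 0.2245 on HFD, and 0.0273, 0.0347, 0.0269 and 0.0938 on KD, with KD replicate 4 the highest of its group but below the other diets. The Spp1 to Muc1 ratio was 2.87 to 6.67 on LFD, 4.30 and 6.72 on HFD and 0.5455 to 2.16 on KD. Every KD library had less Spp1 and Cftr per Muc1 than any library of the other diets, and Muc1 itself followed acinar RNA.

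Correlations of log2 CPM over the 9 libraries described which duct markers varied together, and they carry no test because the libraries share diets and the scaling of CPM values. Krt19, Cftr and Spp1 were close to each other, with Pearson r of 0.91 for Krt19 and Cftr, 0.92 for Spp1 and Cftr and 0.86 for Krt19 and Spp1. After the mean of each diet was taken out, these values were 0.59, 0.56 and 0.27, lower for all 3 pairs. Sox9 and Spp1 kept their relation (0.88 over the libraries, 0.87 after diet means). Krt7 ran against Muc1 both ways (-0.87 and -0.98), and Cldn7 ran against Tspan8 (-0.77 and -0.77).

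The label of duct marker was checked against the mean levels of 8 lists of other cell types, 64 relations in all. Muc1 followed the acinar list almost exactly (r = 0.99 over 9 libraries, 0.98 without the 2 libraries farthest from the median of that list, 0.99 after diet means). Krt7 followed the list of 10 beta cell genes (0.97, 0.96 and 0.96) and ran against the acinar list (-0.86). In these preparations, then, Muc1 and Krt7 went with genes of other cell types, against their label. Both are still counted among the 8 duct markers, a name that for them rests only on how the list was chosen. Krt19 had its highest values with the lymphocyte list (0.95, 0.84 and 0.78) and the fibroblast and stellate cell list (0.84, 0.65 and 0.91), whose 12 genes summed to 449 to 883 CPM on LFD, 510 and 646 CPM on HFD and 226 to 489 CPM on KD. Over the 9 libraries Cftr and Spp1 were also closest to the lymphocyte list (0.90, 0.65 and 0.43 for Cftr, 0.88, 0.79 and 0.12 for Spp1). Sox9, Spp1 and Cftr were related to the acinar list only after diet means were taken out (0.93, 0.81 and 0.76, against 0.48, 0.06 and 0.17 over the libraries). The part of these other cell types in the changes of the duct genes was not tested.

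**Figure D3:**
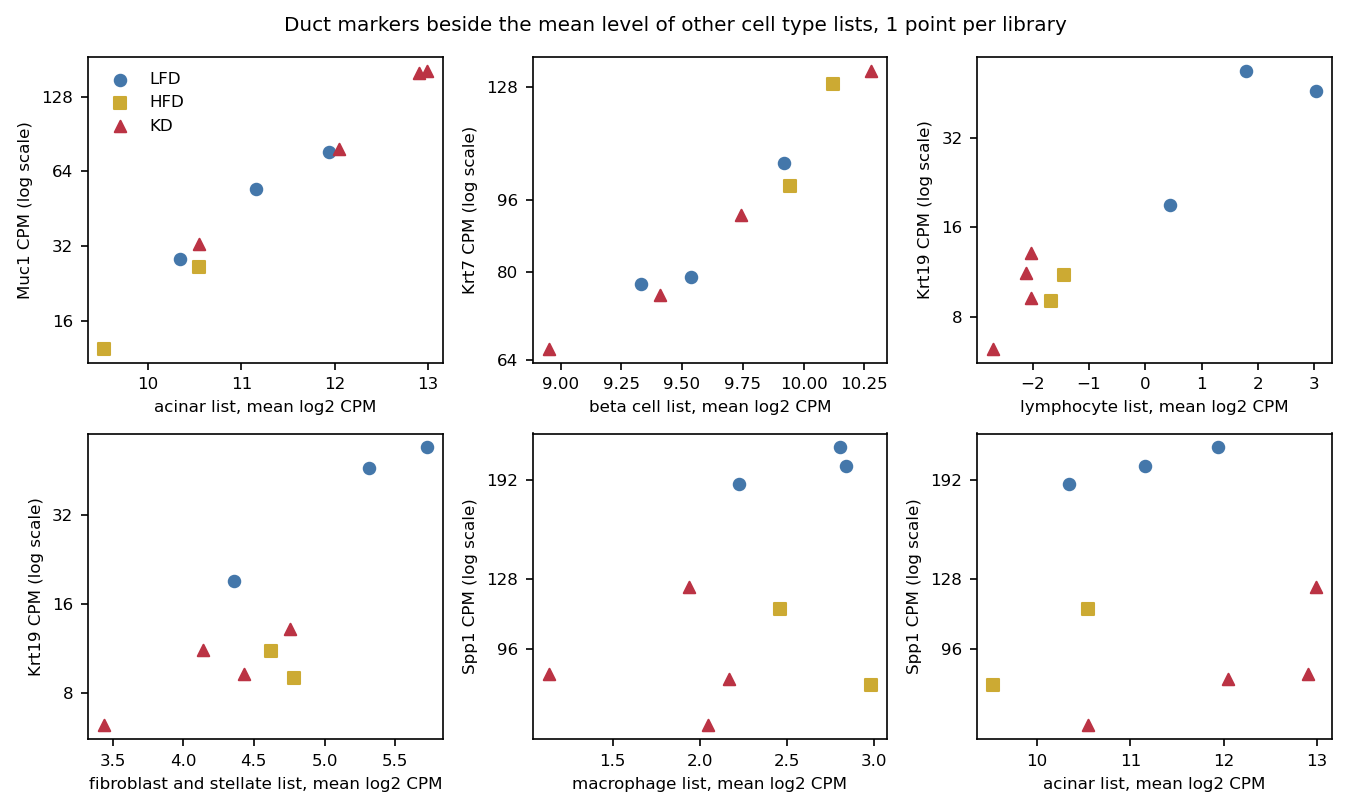
Level of a duct marker (vertical axis, CPM on a log scale) against the mean log2 CPM of a list of genes of another cell type (horizontal axis), with 1 point per library and symbols for the diets. Muc1 rises along the acinar list and Krt7 along the beta cell list in all diets, Krt19 is high only in the LFD libraries that are high in lymphocyte genes, and Spp1 is higher in every LFD library than in any other. The mean macrophage level of all 4 KD libraries is below that of every LFD library, and the acinar ranges of LFD and KD overlap.

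Mesothelium, the lining of the abdomen, also makes the keratins of Krt7 and Krt19. The 10 mesothelial genes summed to 23.5 to 32.7 CPM on LFD, 17.8 and 18.4 CPM on HFD and 17.3 to 65.6 CPM on KD, where the highest was KD replicate 4. With their mean level as a covariate, edgeR called Cftr, Krt19 and Spp1 on KD, a fit that called 3.89% of all genes. The part of mesothelium in these changes was not tested. Of the 10 genes of intestinal epithelium, Cdx1 and Reg4 had 0 counts in every library, which allows at most 0.267 CPM in the library with the smallest scaled size, and Vil1, also made by other epithelia, held most of the counts of that list.

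The rest of the duct programme was described with 56 further genes in 5 roles, of which 54 were in the table and 49 were tested. For KD against LFD, 10 of the 49 fell and 0 rose, beside 3.14% and 0.981% of all genes, and the median change was -0.27. For HFD against LFD edgeR called 0 of the 49 (17 at an unadjusted p below 0.05, 7 by DESeq2 and 0 by limma-voom). Over all genes the same measures gave 0%, 9.99%, 1.44% and 0%. The median was -0.67, beside -0.002 for all genes, and 24 of the 49 were lower without overlap, as were 14.1% of all genes. The KD count of 10 dropped to 1 when LFD replicate 1 was left out, and to 3 when LFD replicate 2, KD replicate 2 or KD replicate 3 was. Calls over all genes dropped with it, from 4.12% to 0.970%, 1.24%, 1.08% and 0.822% in the same order.

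Of the genes of cilia and the polycystin system, 4 of 8 fell on KD. Foxj1, the transcription factor of motile cilia, fell by 1.82 on the log2 scale (edgeR adjusted p 0.00947), from 8.22, 9.23 and 5.30 CPM on LFD to 2.10, 1.515, 2.23 and 2.73 CPM on KD, and measured 2.65 and 2.47 CPM on HFD. Pkhd1, which encodes the ciliary protein fibrocystin and is mutated in recessive polycystic disease of kidney and liver, measured 229.6, 181 and 178 CPM on LFD, 143 and 97.9 CPM on HFD, and 135, 90.2, 85.3 and 61.4 CPM on KD. Pkhd1 fell by 1.08 (edgeR adjusted p 0.0315), Bicc1, an RNA-binding protein of the same tissues, by 0.82 (edgeR adjusted p 0.0315) and Dcdc2a, a doublecortin-domain protein of cilia, by 0.64 (edgeR adjusted p 0.0220). Pkd1, the most abundant of the group together with Pkhd1 and coding for polycystin, was at 154 to 210.0 CPM in all libraries and did not pass (-0.20, edgeR adjusted p 0.405).

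Among 10 transcription factors, Elf3 and Ehf fell on KD. Both encode ETS factors of simple epithelia. Elf3 measured 42.3, 29.1 and 23.03 CPM on LFD, 8.55 and 13.8 CPM on HFD, and 13.8, 12.8, 9.08 and 11.5 CPM on KD, with all LFD libraries above all others, and it fell by 1.41 (edgeR adjusted p 0.0124). Ehf fell by 0.98 (edgeR adjusted p 0.0237). Glis3 and Tead1, the most abundant of the role, were at -0.30 and -0.17 and did not pass.

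Of 11 tested genes of ion and water transport, Car2 and Kcnn4 fell on KD. Car2, a carbonic anhydrase that supplies bicarbonate, measured 5.21, 3.14 and 2.44 CPM on LFD, 1.75 and 1.59 CPM on HFD, and 0.778, 0.980, 0.980 and 0.672 CPM on KD, and fell by 2.07 (edgeR adjusted p 0.0125). It was lowest on KD, without overlap between any of the diets, and its change for KD against HFD was -0.97. Kcnn4, a calcium-activated potassium channel, fell by 1.23 (edgeR adjusted p 0.0279). Atp1b1 and Slc12a2, the most abundant of the role, were at -0.11 and 0.05.

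None of the 12 tested genes of keratins, junctions and surface epithelium passed on KD by edgeR, where 4.12% of all genes did. At an unadjusted p below 0.05 edgeR gave 2 of the 12, against 22.7% of all genes. Krt8, the keratin partner of Krt18 in simple epithelia, was at -0.50 (edgeR adjusted p 0.143), and Krt18 and Cdh1, the most abundant of the role, were at -0.11 and -0.00083. The Krt19 to Krt8 ratio of counts was 0.365, 0.2865 and 0.182 on LFD, 0.119 and 0.170 on HFD, and 0.105, 0.1095, 0.0632 and 0.138 on KD. That ratio was lower in every HFD and KD library than in any LFD library, so Krt19 was low relative to another keratin as well as in CPM.

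Among 8 tested mucin and secreted genes, Lcn2 and Pigr fell on KD and Dmbt1 and Tff2 were highest there without passing. Lcn2, a secreted lipocalin, fell by 1.49 (edgeR adjusted p 0.0232) from levels of 3.05 to 4.21 CPM on LFD. Pigr, the receptor that carries IgA across epithelia, fell by 0.89 (edgeR adjusted p 0.0176), with 24.8, 26.4 and 30.4 CPM on LFD and 12.7, 14.5, 13.9 and 17.7 CPM on KD, but it measured 21.6 and 29.4 CPM on HFD, the first below and the second within the LFD range. Dmbt1, a scavenger-receptor glycoprotein, ran from 5541 to 45970 CPM on KD and from 2921 to 10430 CPM on LFD (1.93, edgeR adjusted p 0.141), and Tff2, a trefoil peptide, was at 0.83 (edgeR adjusted p 0.421). Both were lowest on KD in replicate 4, the KD library with the least acinar RNA.

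**Figure D4:**
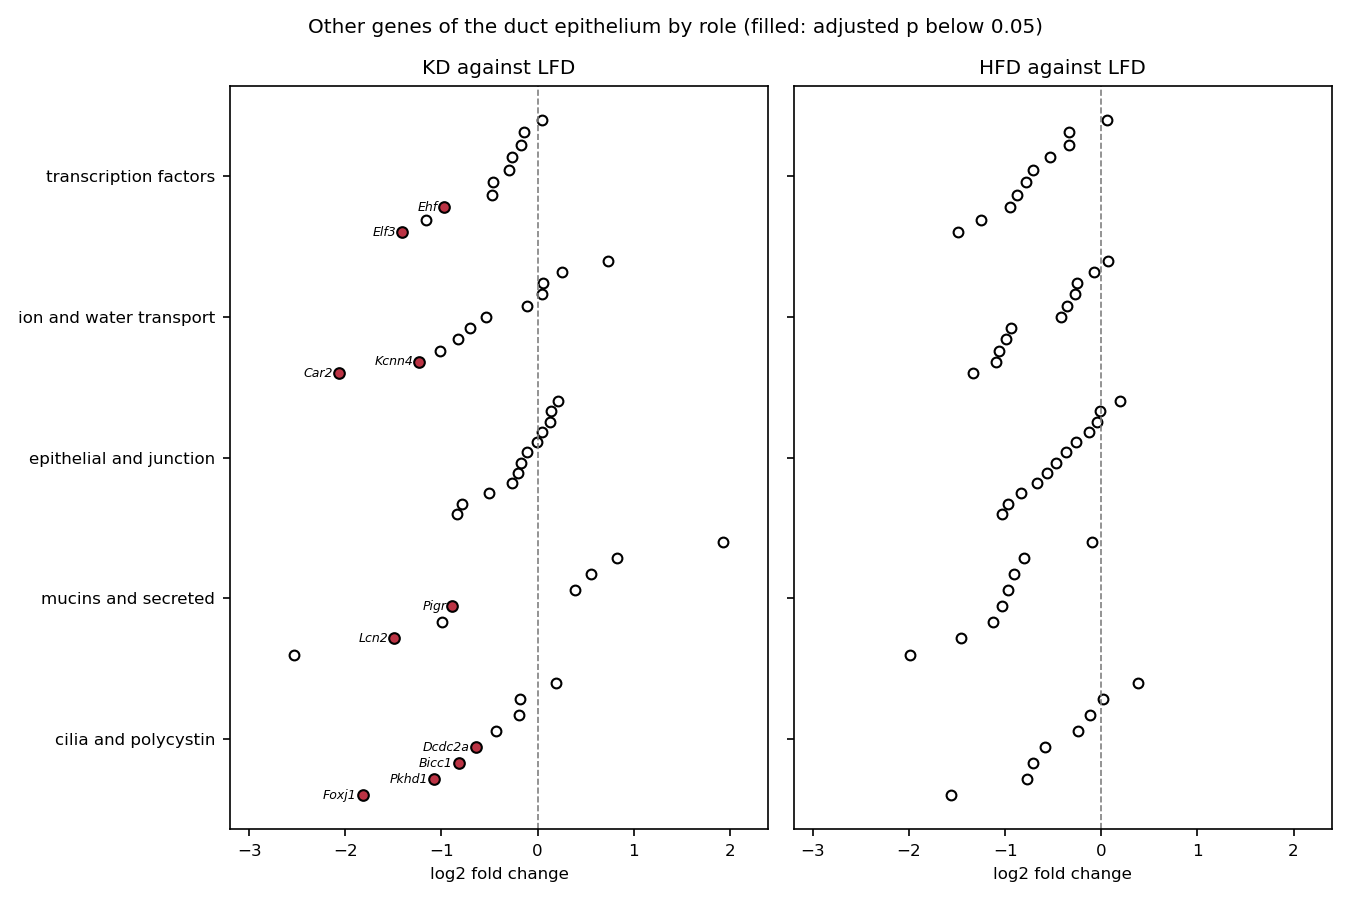
Fitted log2 fold change (horizontal axis) of the 49 further duct genes tested, 1 point per gene in rows by role, for KD against LFD and HFD against LFD; filled points have an edgeR adjusted p below 0.05 and are named. The 10 filled points all lie below 0 on KD and none are filled on HFD, where 44 of the 49 points lie below 0.

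The genes most like the mean log2 CPM of the 8 duct markers over the 9 libraries, among 10298 named protein-coding genes with a mean of at least 5 CPM, were Sgms1, Sema5a, Krt8, Ier2, Tgif1, Baiap2, Stk17b, Lmbr1l, Stbd1 and Mcl1, with Pearson r from 0.975 down to 0.946. Of these, Ier2, Tgif1, Baiap2 and Stk17b fell on KD, with changes of -0.98, -1.48, -1.02 and -2.60 (edgeR adjusted p 0.0272, 0.0360, 0.0264 and 0.0224). None of the 10 stayed on the list when diet means were taken out. For single genes, Krt19 was like Tnfrsf12a and Nfkbia (0.980 and 0.969), Spp1 like Shank2, Erbb4 and Ablim1 (0.984, 0.977 and 0.976), Cftr like Ier2, Map3k21 and Map3k14 (0.977, 0.971 and 0.968) and Sox9 like Naaladl2, Epn3 and Hnrnpa1 (0.979, 0.968 and 0.958). Krt7 was most like Maged1, Ucn3 and Pja1 (0.978, 0.978 and 0.975), of which Ucn3 is a peptide of mature beta cells and was in the beta cell list. Muc1 was most like Hamp2, Cabp2 and Slc16a7 (0.996, 0.992 and 0.992), Cldn7 like Thap7, H2afx and Terf2ip (0.963, 0.944 and 0.936) and Tspan8 like Wdfy1, Nsmce4a and Mapk1ip1 (0.970, 0.937 and 0.928).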

How the data were processed

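RNA from islets of 3 diet groups (3 LFD, 2 HFD and 4 KD libraries, grouped by title) had been selected for poly(A) and made into strand-specific libraries, per the labels' protocols. The authors deposited raw counts per Ensembl gene, with 1 column per sample. The submitters' processing notes name cutadapt 1.16, STAR 2.7.9a, featureCounts 1.6.3 and DESeq2 1.40.2 and the build GRCm39, without roles. The annotation release and the strand used in counting are not given in the sources here. Symbols came from the supplied gene table and matched 51948 of 56941 identifiers.

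Genes were kept by filterByExpr, scaled by TMM and tested over all 18548 genes with edgeR 4.0.16 in R 4.3.3 (robust quasi-likelihood, 1 mean per diet, all 9 libraries, two-sided, Benjamini-Hochberg threshold 0.05). The SE was the absolute log2 change divided by the root of its F value. Log2 CPM used a prior count of 2. Lengths are the longest transcript in GENCODE M21. Alternatives included DESeq2 1.42.0, limma-voom (limma 3.58.1), other scalings and filters, list scores as covariates and the omission of each library. The procedure was tested on simulated counts.

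The 8 genes, the lists and the tests were chosen with earlier results of these data known. Genes named are the 8, further duct genes past the threshold, the 2 most abundant of each role, and those most like the 8; a few genes that this rule names are not reported here. Nothing says that libraries came from separate mice, so p-values measure the spread between these libraries. No 2 libraries of a diet matched within sampling noise (smallest chi-square per gene 26.9). The labels name no batch.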

Additional observations from a re-analysis of the deposited data

Results flagged for a closer look

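KD replicate 3 lay far from the other KD libraries in the mean level of 2 lists of other cell types. Its lymphocyte level was -2.701 log2 CPM, against -2.120 to -2.028 in the other KD libraries, a gap of 0.862 of the whole range. Its endothelial level was 4.916 log2 CPM, against 5.441 to 5.549, a gap of 0.830 of the range. Both gaps exceed Dixon's 95% critical value for 4 samples, which chance passes in about 1 of 20 groups, and 16 measures were examined. Without KD replicate 3, edgeR called Cftr, Krt19 and Spp1 for KD against LFD, beside 0.822% of all genes (4.12% with all libraries). The joint test over the diets then called Cftr alone of the 8, beside 0.474% of all genes.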

How the results depend on the processing

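Counts of duct markers called for KD against LFD stayed at 2 to 4 of 8 except in 4 settings: 5 with scaling by total counts, 0 with the lymphocyte or the macrophage score as a covariate and 6 with the beta cell score, a setting added after the data were seen. Calls over all genes in these fits moved from 764 to 1653, 0, 1 and 2784, in that order. For HFD against LFD the count was 3 by DESeq2, 2 with no low-count filter, 1 with the macrophage score and 0 to 2 when a library was left out. Calls over all genes there were 1.44%, 0.261%, 0.248% and 0 to 1.06%, in that order. For KD against HFD the count was 1 with scaling by total counts, 1 by DESeq2 and 0 to 1 when a library was left out, beside 8.36%, 8.18% and 0 to 9.84% of all genes. The joint test over the diets called 3 of the 8, and 0 by limma-voom and with the lymphocyte or macrophage score, 5 with the beta cell score and 0 to 4 when a library was left out (0 without LFD replicate 1, LFD replicate 2 or KD replicate 2, 1 without KD replicate 3, 4 without KD replicate 4). Joint calls over all genes were 2.17%, then 0.108%, 0%, 0.183% and 10.8% in those settings, and 0.196 to 10% when a library was left out.

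The median change of the 8 moved for KD against LFD to -1.31 (total counts), -0.90 (acinar score) and -0.95 (macrophage score). For HFD against LFD it moved from -1.02 to -0.45 (acinar score), -0.72 (lymphocyte score) and -0.55 (beta cell score), and from -1.37 to -0.74 when a library was left out. For KD against HFD it moved from 0.13 to -0.70 (total counts), -0.26 (acinar score) and -0.094 (beta cell score). With total counts the median of all genes was itself -0.587 for KD against LFD and -0.81 for KD against HFD. The further duct genes called on KD against LFD were 17 with total counts, 6 by limma-voom, 0 with the lymphocyte or macrophage score, 19 with the beta cell score and 1 to 12 when a library was left out. All-gene calls were 8.91%, 1.15%, 0% (lymphocyte), 0.00539% (macrophage), 15% and 0.822 to 7.4%, in that order. For HFD against LFD the further duct genes called were 7 by DESeq2, 3 with no filter, 1 with the macrophage score and 0 to 5 when a library was left out. All-gene calls there were 1.44%, 0.261%, 0.248% and 0 to 1.06%. For KD against HFD the further duct genes called were 6 with total counts, 8 by DESeq2, 3 with no filter, 1 with the beta cell score and 0 to 12 when a library was left out (12 without KD replicate 4). All-gene calls there were 8.36%, 8.18%, 1.02%, 0.625% and 0 to 9.84% (9.84% without KD replicate 4).

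Changes of sign, in values that were not called unless stated, came as follows. For KD against LFD, Krt7 was -0.39 with total counts, -0.35 with the lymphocyte score, -0.059 with the mesothelial score and -0.16 to 0.23 when a library was left out, Cldn7 was -0.31 with total counts, Muc1 was -0.066 with the acinar score, and Krt19, called in the main analysis, was 0.32 with the lymphocyte score. For HFD against LFD, Cldn7 was 0.18 with total counts, 0.39 with the lymphocyte score and -0.30 to 0.16 when a library was left out, Krt7 was -0.010 with the acinar score, and Tspan8 was -0.69 to 0.0055 when a library was left out. For KD against HFD, Krt19 was 0.012 with DESeq2 size factors, 0.010 by DESeq2, 0.00011 with no filter, 0.0039 in a fit of the 2 groups, 0.35 with the lymphocyte score, 0.97 with the macrophage score and -0.16 to 0.155 when a library was left out. Sox9 was -0.61 with total counts, -0.69 with the acinar score, -0.18 with the macrophage score, -0.18 with the beta cell score and -0.087 to 0.72 when a library was left out. Cftr was -0.53 with total counts, -0.37 with the acinar score and -0.014 with the beta cell score, Cldn7 was -0.50 with total counts, Krt7 was 0.39 with the acinar score, Spp1 was -0.31 to 0.15 and Tspan8 was -0.61 to 0.079 when a library was left out. The cause was not tested.

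Whether replicate numbers pair the libraries is not known. Deviations from diet means of same-numbered libraries correlated from -0.02 to 0.22, which cannot settle it. Only KD has a replicate 4, so a block for replicate number in effect takes that library out of the diet comparisons. With the number as a replicate block, the duct markers called were 4 on KD against LFD (a count within 1.5 times the main one), 4 on HFD against LFD, 2 on KD against HFD and 5 in the joint test, beside 2003, 395, 2320 and 2820 of all genes (764, 0, 0 and 402 without the block). The further duct genes called were 16, 10 and 15, and Krt7 was -0.16 for KD against LFD while Krt19 was 0.22 and Spp1 0.071 for KD against HFD. Cftr, at 48 to 68 counts per KD library, and Car2 are limited by depth.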
